A study of Drosophila melanogaster with 12 samples.

Results

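The genes described here are 9 maternal genes of Drosophila melanogaster that set the axes of the egg or build its germ plasm: oskar (osk), valois (vls), nanos, polar granule component (pgc), germ cell-less (gcl), gurken (grk), bicoid (bcd), exuperantia (exu) and staufen (stau). They were taken from a list of gene symbols, and all 9 were found among the 17558 features of the count files. The choice used no measured value, but it was made with earlier results of these libraries known. Reads were counted per gene in dissected gonads of 4 groups of 3 libraries: Tdrd5l mutant ovaries, cas9 iso control ovaries, Tdrd5l mutant testes and cas9 iso control testes. Tdrd5l encodes a Tudor domain protein of the germline, and the study asked how its loss alters gene expression in each gonad. Ovaries came from females 0 to 1 day old and testes from males 1 to 2 days old, all raised at 25 °C. Ovary RNA was poly(A) selected and testis RNA was depleted of ribosomal RNA, so RNA selection and tissue cannot be told apart. The labels call the libraries biological replicates and describe neither the lesion in Tdrd5l nor what the control line carries beyond its name.

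In the fly ovary, nurse cells make these RNAs and pass them into the oocyte, where motor transport, anchoring and translational control place each product at a pole of the cell. Oskar protein at the posterior gathers the germ plasm, which holds nanos, pgc and gcl RNA and later forms the germ cells of the embryo. bcd RNA is anchored at the anterior and encodes the morphogen of the head and thorax, and grk RNA beside the oocyte nucleus encodes the ligand that sets the dorsal side. None of these places can be seen in counts from whole gonads, which bear at most on the amount of each RNA. In such bulk samples, fewer cells of a type and less RNA per cell cannot be told apart.

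Gene counts totalled 772292 to 1647933 in ovary libraries and 1390699 to 2880119 in testis libraries, and 96.6% to 98.0% of uniquely aligned ovary records and 94.9% to 96.6% of testis records fell in no feature. Mutant ovary library 2 stood apart. In it 32.5% of gene counts lay in genes with no exon of another gene on the opposite strand, against 8.90% to 17.6% in the other 5 ovary libraries. A larger part of its counts fell on several marker lists, in counts per 1000000 (CPM) of the library total: the summed level of 5 muscle sheath genes was 3690 CPM there, against 330 to 2460 CPM in the others, and that of 3 yolk protein genes 923 CPM against 9.51 to 51.6 CPM. The 5 nurse cell and oocyte genes summed to 1570 CPM there and to 150 to 379 CPM in the others. Whether these sums reflect more RNA of such cells or the share of 32.5% in that library was not tested. For the genes fitted in ovaries, the genotype difference is therefore also given without that library. Testis markers set the tissues apart: 13 spermatocyte and spermatid genes summed to 3340 to 8420 CPM in testes and to 7.7 to 19 CPM in ovaries. In each ovary genotype 9 of the 13 were at 0. Eggshell genes of late follicle cells were low in ovaries, at 38.3 to 65.5 CPM over 11 genes in mutant ovaries and 20.7 to 41.6 CPM in control ovaries. Of them, Cp16 and Cp19 were at 0 in mutant ovaries, and those and Vm26Aa, Vm26Ab and Vm32E were at 0 in control ovaries. In testes the 11 eggshell genes summed to 18.4 to 37.2 CPM and the yolk protein genes to 57.6 to 105 CPM. There the nurse cell and oocyte genes summed to 287 to 683 CPM and the muscle sheath genes to 98.3 to 201 CPM. Of these sums, only that of the muscle sheath genes was higher in every ovary library than in every testis library. Tdrd5l, listed as CG15930, had 347 ± 120 CPM in mutant testes and 346 ± 65.2 CPM in control testes (mean ± SD over 3 libraries; log2 0.01 ± 0.34 SE, adjusted p = 0.998 in edgeR), so its count does not set the genotypes apart.

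Where the genes lie bears on what their counts hold. Of the 9 genes, 7 overlap an exon of a gene on the opposite strand in the Ensembl annotation of BDGP6.54. By its name the library kit does not mark strand, and how strand was set in the counting is not stated. If the reads carry no strand, those of a gene and of its opposite partner cannot be told apart where they overlap. If they do carry it, the gene they were assigned to depends on the setting. The doubt reaches beyond the shared bases, since nearly all uniquely aligned records fell in no feature, as given above. Whether the reads carry strand, and whether a gene's counts are its own reads or those of the opposite strand, was not tested. In 5 of the 6 ovary libraries at most 17.6% of gene counts lay in the 12789 genes without an opposite exon, so most lay in the 4463 genes with one. How far the level of each gene over all its exons, and its order in either tissue, depends on that setting was not tested. osk (FBgn0003015) lies on the plus strand of chromosome 3R at 8935126 to 8938395, with 4 exons and 2869 exon bases. Its first 162 bases, at 8935126 to 8935287, are opposite the first exon of the noncoding antisense RNA asRNA:CR44020 (FBgn0264790), which runs from 8934279 to 8935287. Those bases hold the start of the osk 5′ UTR and, in an isoform, coding sequence. A noncoding transcript annotated as lncRNA:osk covers 2251 of the osk exon bases on the same strand, so its reads and those of osk mRNA cannot be told apart either. How reads of these shared bases were counted was not tested, and levels of osk per kilobase divide by all 2869 exon bases. pgc (FBgn0016053; 2R, 22330200 to 22332813, plus strand) shares the most, with 569 of its 1212 exon bases, 46.9%, in its 5′ UTR opposite T3dh. exu (FBgn0000615; 2R, 20667427 to 20671083, minus strand) shares 397 of 3290 exon bases in its 5′ UTR with galla-1.

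The other overlaps lie in 3′ UTRs. grk (FBgn0001137; 2L, 8431086 to 8433598, minus strand) shares 212 of 1718 exon bases with Akap200, which encodes an anchor protein of protein kinase A. nanos (FBgn0002962; 3R, 19157238 to 19160202, plus strand) shares 269 of 2349 with CG11779, and further bases with Nsun5. vls (FBgn0003978; 2L, 20064261 to 20065679, minus strand) shares 121 of 1310 with lok, which encodes the checkpoint kinase Chk2. gcl (FBgn0005695; 2R, 8724258 to 8728999, plus strand) shares 36 of 2509 with CG30356. Only bcd (FBgn0000166; 3R, 6755842 to 6759466, minus strand, 2536 exon bases) and stau (FBgn0003520; 2R, 18117896 to 18125779, minus strand, 5369 exon bases) have no exon opposite them. Of all 17252 annotated features, most have none either.

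Across the 3 control ovary libraries the genes fell into levels that differ widely, here in CPM per kilobase of exon on a scale common to all 12 libraries. pgc, whose small protein holds back transcription in the early germ cells, was highest at 323 ± 56.5 per kilobase (SD, n = 3). grk followed at 157 ± 28.8 and vls at 139 ± 13.1, whose ranges overlapped each other but not that of pgc. nanos stood at 35.4 ± 8.42, osk at 22.2 ± 10.7 and exu at 15.8 ± 5.24, each overlapping its neighbour in this order. The lowest were stau at 1.79 ± 0.862, bcd at 1.4 ± 1.31 and gcl at 0.857 ± 0.774, whose ranges overlapped as well, with bcd and gcl each at 0 counts in control ovary library 3. These were also the genes with the fewest exon bases opposite another gene, 0 for stau and bcd and 36 for gcl. The most, 569, were those of pgc. Other genes did not keep to that order, with vls at 121 bases above exu at 397. The part of the overlap in these levels was not tested. In mutant ovaries the order was pgc at 246 ± 136, vls at 212 ± 75.9, grk at 95.1 ± 45, osk at 66.8 ± 79.9, nanos at 42.2 ± 16.7, exu at 15.8 ± 0.522, gcl at 3.87 ± 5.31, stau at 3.32 ± 4.6 and bcd at 3.21 ± 1.81 per kilobase. There, neighbours overlapped except nanos with exu and exu with gcl. The mean of osk there rested on mutant ovary 2, at 159 per kilobase, against 29.1 and 12.8 in mutant ovaries 1 and 3.

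**Figure D1:**
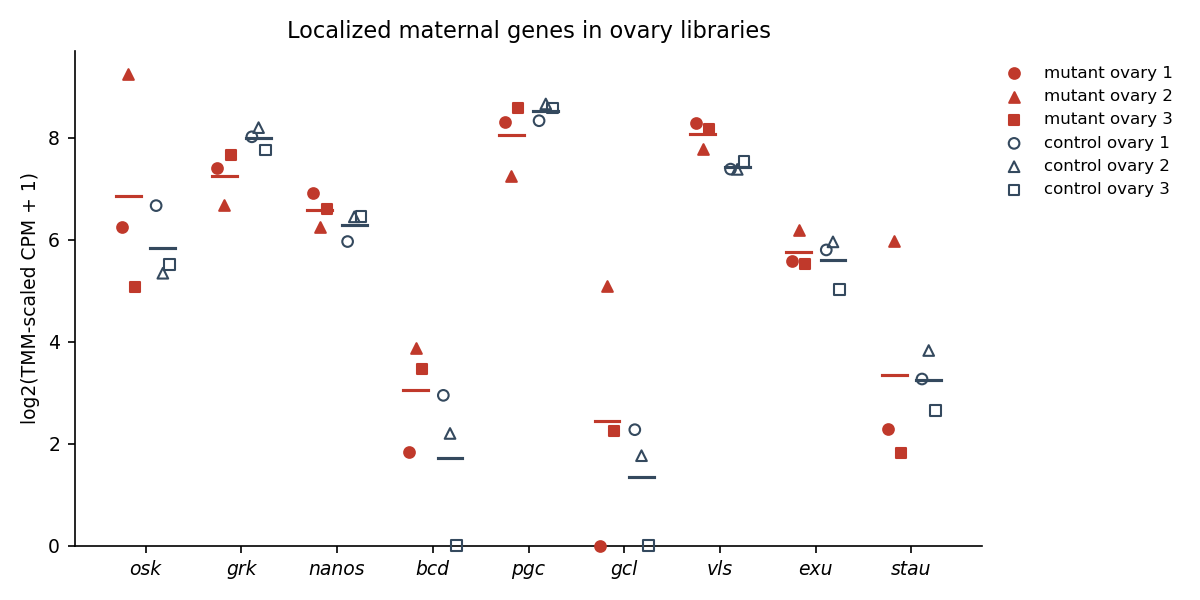
Level of each gene in the 6 ovary libraries, as log2 of TMM-scaled CPM plus 1, with mutant libraries filled and left, control libraries open and right, marker shapes for replicates 1, 2 and 3, and a bar for the mean of the log values. Mutant ovary 2 is the highest library for osk, bcd, gcl, exu and stau and the lowest for grk and pgc, while the vls and grk groups do not overlap.

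Between mutant and control ovaries, none of the genes passed the test, and 0% of the 4683 genes tested did (edgeR quasi-likelihood, Benjamini-Hochberg adjusted p under 0.05). Of those genes, 184 had an unadjusted p under 0.05, and DESeq2 called 14, or 0.299%, none of them among the 9. Of the 9 genes, 6 had enough counts to be tested, with log2 fold changes from -0.7 to 1.95 and a median of 0.23, beside a median of 0.14 over all genes tested. All 6 had an adjusted p of 0.999. Groups that did not overlap were those of vls, higher in mutants, and grk, lower in mutants, where 4.31% and 5.66% of all genes tested were higher and lower without overlap. Values from here on, within a tissue, are TMM-scaled CPM.

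Among the genes of the posterior pole, osk had the widest spread. It reached 75.1, 605 and 32.7 CPM in mutant ovaries 1, 2 and 3, from 58, 1061 and 26 counts, against 101, 39.6 and 44.7 CPM in control ovaries, from 105, 33 and 34 counts. Mutant ovary 2 alone lay far above the rest, and the other 2 mutant libraries lay within or below the control range. The log2 fold change was 1.95 ± 1.06 (SE; 95% interval -0.57 to 4.46). Without mutant ovary 2 it was -0.17 ± 0.48 (edgeR adjusted p = 0.876), so the direction of osk rested on that library. Control ovary 1 was the next highest library for osk and for the muscle sheath genes. Leaving out both libraries, a choice made after the data were seen, gave 0.32 ± 0.41 (edgeR adjusted p = 0.738).

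vls encodes Valois, a partner of the arginine methyltransferase that marks germ plasm proteins, and germ plasm assembly needs it. It had 314, 218 and 287 CPM in mutant ovaries and 166, 165 and 184 CPM in control ovaries, so each mutant library lay above each control library. The log2 fold change was 0.66 ± 0.28 (95% interval 0 to 1.33, unadjusted p = 0.0503 in edgeR). It was 0.82 ± 0.21 without mutant ovary 2 (edgeR adjusted p = 0.0843) and 0.75 ± 0.19 without that library and control ovary 1 (edgeR adjusted p = 0.0531). With the share of counts in genes lacking an opposite exon as a covariate it was 0.68 ± 0.15 (edgeR adjusted p = 0.0554). In these 3 fits, 1.14%, 2.95% and 1.96% of the genes tested passed, and vls was close to the threshold in each without passing it. They are the fits with the smallest adjusted p for vls among 13 alternatives, none of which it passed. With library size alone its adjusted p was 0.619 and with a replicate block 0.999 (both edgeR), and in DESeq2 it was 0.999. The log2 fold change ran from 0.43 to 0.82 over the 13.

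nanos encodes the repressor that allows the abdomen to form and keeps germline stem cells. It had 120, 75.2 and 95.5 CPM in mutant ovaries and 61.4, 86.3 and 86.8 CPM in control ovaries. The groups overlapped through mutant ovary 2, and the log2 fold change was 0.31 ± 0.32 (95% interval -0.45 to 1.07), or 0.48 ± 0.3 without that library (edgeR adjusted p = 0.407). pgc had 316, 152 and 385 CPM in mutant ovaries and 321, 404 and 381 CPM in control ovaries, with a log2 fold change of -0.38 ± 0.39 (95% interval -1.29 to 0.53). Its mutant ovary 2 was the lowest of the 6, and without it the log2 fold change was -0.06 ± 0.21 (edgeR adjusted p = 0.904). gcl, whose product helps the germ cells to form at the posterior, was too low to be fitted. It had 0, 58 and 3 counts in mutant ovaries and 4, 2 and 0 in control ovaries, so 58 of the 61 mutant counts came from mutant ovary 2. An exact two-sided permutation test of its CPM gave p = 0.7, where 3 against 3 libraries cannot go below 0.1.

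grk, the ligand of the dorsal side, had 170, 102 and 201 CPM in mutant ovaries, against 258, 292 and 216 CPM in control ovaries. Each mutant library lay below each control library. The log2 fold change was -0.7 ± 0.35 (95% interval -1.51 to 0.12, unadjusted p = 0.0823 in edgeR), and it was -0.45 ± 0.23 without mutant ovary 2 (edgeR adjusted p = 0.329), still without overlap of the groups.

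Of the anterior genes, exu acts in the localization of bcd RNA and stau encodes a protein that binds double-stranded RNA and carries osk and bcd RNA. exu had 46.6, 71.8 and 45.2 CPM in mutant ovaries and 54.7, 61.1 and 31.6 CPM in control ovaries, with overlap and a log2 fold change of 0.16 ± 0.41 (95% interval -0.8 to 1.11). Without mutant ovary 2, its highest library, the sign of exu turned, at -0.08 ± 0.38 (edgeR adjusted p = 0.929). bcd had 2.59, 13.7 and 10.1 CPM in mutant ovaries, from 2, 24 and 8 counts, and 6.72, 3.6 and 0 CPM in control ovaries, from 7, 3 and 0 counts (exact two-sided permutation p = 0.3). stau had 3.89, 61.6 and 2.51 CPM in mutant ovaries, from 3, 108 and 2 counts, and 8.63, 13.2 and 5.26 CPM in control ovaries, from 9, 11 and 4 counts (exact two-sided permutation p = 1). The mean of stau was higher in mutants through mutant ovary 2 alone, since the other 2 mutant libraries lay below every control library.

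Mutant ovary 2 was the highest of the 6 libraries for 5 of the 9 genes and the lowest for 2, where it was the highest for 40.3% and the lowest for 33.9% of the 4683 genes tested. Relative to the median of the other 5 libraries its level was 13.8 times for gcl, 13.5 times for osk, 11.7 times for stau and 3.8 times for bcd. For exu the ratio was 1.54, for grk 0.473 and for pgc 0.398. For vls it was 1.18 and for nanos 0.867. The part of library composition in these levels was not tested. Without mutant ovary 2, the groups of vls and nanos lay higher in mutants without overlap and those of grk and stau lower. With 2 against 3 libraries, 18.8% of all genes tested were higher and 20.9% lower in that way.

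**Figure D2:**
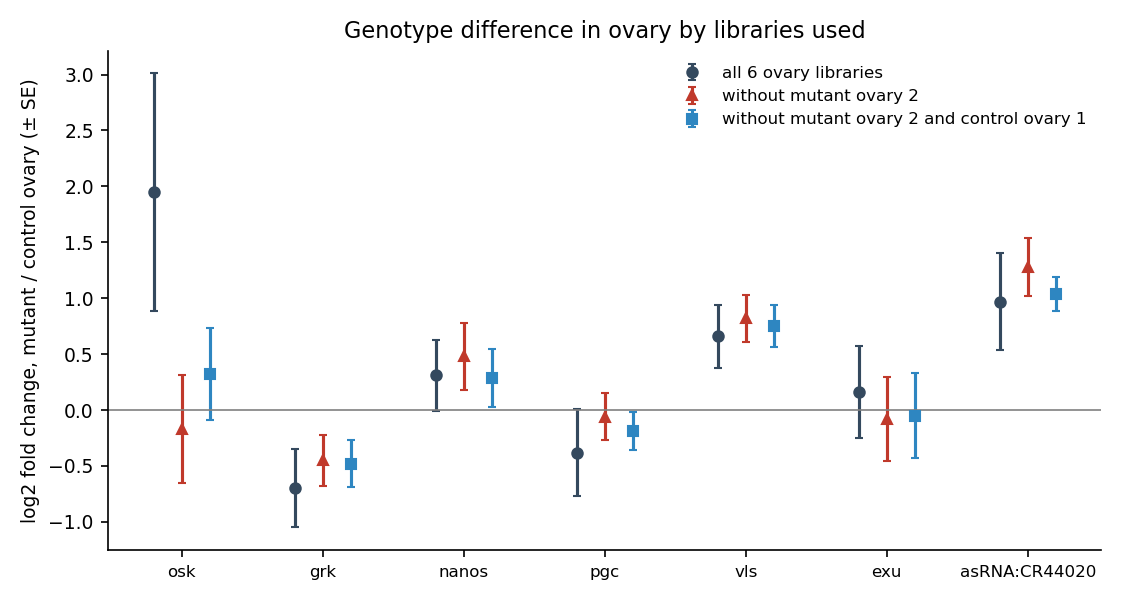
Log2 fold change, mutant over control ovary, with its SE, for the 6 genes tested and asRNA:CR44020, fitted with all 6 libraries, without mutant ovary 2, and without mutant ovary 2 and control ovary 1. In these 3 fits osk is at 1.95, -0.17 and 0.32, vls at 0.66, 0.82 and 0.75 and asRNA:CR44020 at 0.97, 1.28 and 1.04.

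The genes on the opposite strand took a large part of the counts at these loci. asRNA:CR44020 had 8723, 3462 and 7350 CPM in mutant ovaries and 2336, 3318 and 4349 CPM in control ovaries, from 18654 counts in the 3 mutant and 8510 in the 3 control libraries. osk had 1145 and 172 counts, which is 5.78% of the counts of the pair in mutant and 1.98% in control ovaries. Of those 1145 counts 1061 came from mutant ovary 2, and without it osk held 84 counts, or 0.663% of the pair in mutants, below the control share. Per exon base, asRNA:CR44020 lay above osk by 5.83 on the log2 scale in mutant ovaries and by 7.44 in control ovaries, and by 9.03 in mutant ovaries without library 2. With all 6 libraries the log2 fold change of asRNA:CR44020 was 0.97 ± 0.43 (95% interval -0.05 to 1.98, edgeR adjusted p = 0.999), and the groups overlapped in that mutant ovary 2 lay below control ovary 3.

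Without mutant ovary 2, asRNA:CR44020 was higher in mutants by 1.28 ± 0.26 on the log2 scale and passed (edgeR adjusted p = 0.043), where 0.684% of 4826 genes passed as higher. Without control ovary 1 as well it was 1.04 ± 0.15 (edgeR adjusted p = 0.00255, 1.52% of 4208 genes higher). With the share of counts in genes lacking an opposite exon as a covariate it was 1.01 ± 0.12 (edgeR adjusted p = 0.0059, 0.940% of 4683 genes higher). osk itself passed in none of these fits. Its log2 fold change with that covariate was 0.8 ± 0.27 (edgeR adjusted p = 0.196). In the other 10 of 13 alternative fits asRNA:CR44020 did not pass. It was at 0.99 ± 0.52 in DESeq2 (DESeq2 adjusted p = 0.999) and at 0.6 ± 0.66 without mutant ovary 1 (edgeR adjusted p = 0.998). Whether its counts are its own reads or those of the osk strand was not tested.

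The pairs differed in which partner held the counts. nanos held 9.19% to 10.2% of the counts of itself and CG11779 in the mutant and 9.12% to 11.1% in the control ovary libraries, a share that varied little. grk held 14.7% to 54.4% of the counts shared with Akap200 in mutant ovaries and 35.8% to 68.4% in control ovaries. Akap200 was at 202, 594 and 168 CPM in mutant and at 462, 135 and 229 CPM in control ovaries, highest in the 2 libraries with the highest muscle sheath sums. pgc held 42.6% to 48.7% with T3dh in mutant and 59.4% to 66.1% in control ovaries, without overlap. Among 2050 tested genes whose opposite gene was tested too, 6.05% had a share that was lower in mutants in this way. T3dh, an alcohol dehydrogenase gene, had 426, 198 and 405 CPM in mutant and 201, 207 and 260 CPM in control ovaries, with a log2 fold change of 0.62 ± 0.37 (95% interval -0.25 to 1.49, edgeR adjusted p = 0.999), or 0.91 ± 0.21 without mutant ovary 2 (edgeR adjusted p = 0.0629). vls held 55.3% to 67.9% with lok in mutant and 53.8% to 62.9% in control ovaries. When each gene was summed with its partner, the log2 ratio of mean ovary levels was 0.54 for vls (0.67 alone), -0.15 for grk (-0.7 alone), 0.99 for osk (1.95 alone), 0.08 for pgc (-0.38 alone) and 0.7 for exu (0.15 alone). The summed ratio without mutant ovary 2 was 0.61 for vls (0.8 alone), -0.52 for grk (-0.46 alone), 1.25 for osk (-0.19 alone), 0.37 for pgc (-0.07 alone) and 0.98 for exu (-0.1 alone).

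**Figure D3:**
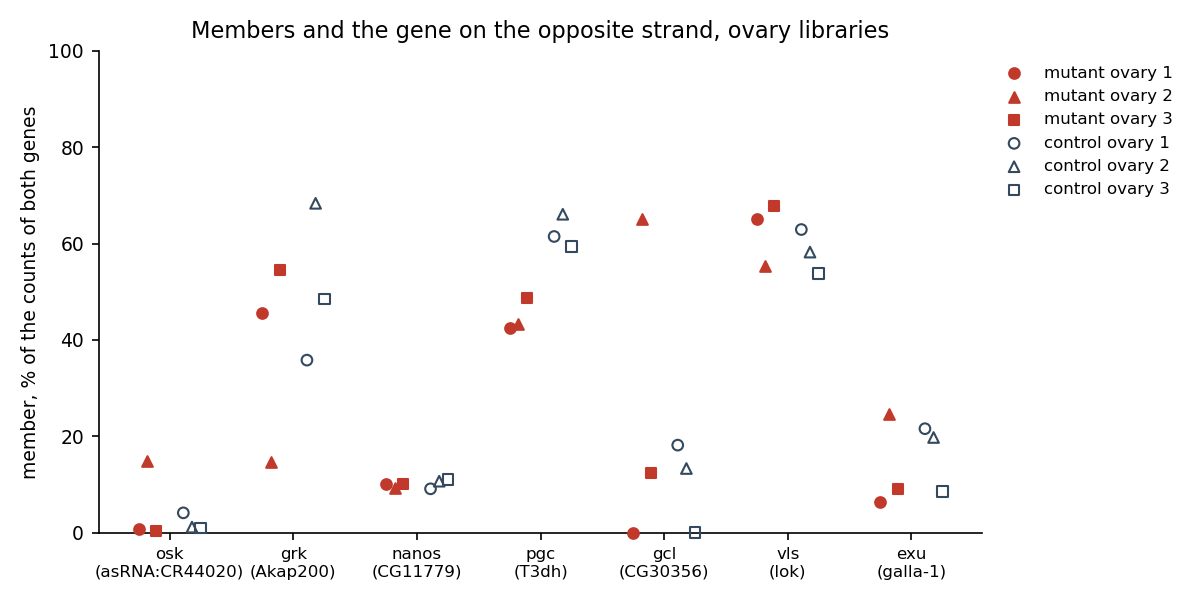
Share of each gene, in percent, of the counts of that gene and its partner on the opposite strand, in each ovary library, with mutant libraries filled and left and control libraries open and right, and marker shapes for replicates 1, 2 and 3. nanos stays near 10% in all 6 libraries, pgc is lower in each mutant than in each control library, and osk exceeds 5% of its pair only in mutant ovary 2, at 14.9%.

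In testes the genotypes were compared in the same way, and none of the genes passed, where 0.942% of the 9768 genes tested did. Of the 9 genes, 8 were tested, with log2 fold changes from -1.06 to 0.55 and a median of -0.06, beside 0.03 over all genes. grk had 14.7, 15.4 and 28.2 CPM in mutant testes and 51.9, 43.3 and 24.7 CPM in control testes. Its log2 fold change of -1.06 ± 0.39 (95% interval -1.85 to -0.26) was the largest in size of the 8 and had an unadjusted p of 0.0107, which did not pass (edgeR adjusted p = 0.371). Summed with Akap200, the log2 ratio of mean levels was -0.1, against -1.04 for grk alone. There, grk held 11.9% of the counts of that pair in mutant and 24.3% in control testes.

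nanos had 666, 476 and 1133 CPM in mutant testes and 1197, 968 and 949 CPM in control testes, and mutant testis 3 alone lay inside the control range. Its log2 fold change was -0.45 ± 0.35 (edgeR adjusted p = 0.856). Without mutant testis 3, grk fell by 1.4 ± 0.37 and nanos by 0.88 ± 0.26 on the log2 scale (edgeR adjusted p = 0.0128 and 0.0253), in a fit where 4.12% of 10619 genes fell. The 13 spermatocyte and spermatid markers summed to 7260 and 8420 CPM in mutant testes 1 and 2, the libraries kept, against 3560 CPM in mutant testis 3 and 3340 to 4760 CPM in control testes, and none of the 13 was at 0. The part of these markers in the difference was not tested. Mutant testis 3 held 27.4% of its counts in genes lacking an opposite exon, against 40% and 43.9% in the other mutant testes and 30.1% to 37.7% in control testes. With that share as a covariate, where 1.81% of 9768 genes passed, the fold changes were -0.85 ± 0.31 for grk and -0.35 ± 0.13 for nanos (edgeR adjusted p = 0.214 and 0.208).

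osk was near the limit of detection in testes, with 25, 12 and 11 counts in mutant libraries and 2, 6 and 5 in control libraries. That is 8.55, 3.94 and 7.75 CPM in mutant testes and 1.55, 3.51 and 2.17 CPM in control testes. The groups did not overlap, as for 5.67% of all genes tested in the higher direction (6.12% in the lower), and the exact two-sided permutation p was 0.1, the smallest this design allows. asRNA:CR44020 had 26, 6 and 3 counts in the mutant and 6, 8 and 4 in the control testes, and 0.86 was the log2 ratio of the mean levels of the 2 summed, against 1.49 for osk alone.

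The other 6 genes that were tested did not pass in testes either. pgc had 21.2, 36.8 and 52.1 CPM in mutant and 31.7, 19.3 and 23.8 CPM in control testes, with a log2 fold change of 0.55 ± 0.39. exu, which spermatogenesis also needs, had 945, 1305 and 598 CPM in mutant and 734, 753 and 971 CPM in control testes (0.21 ± 0.34, 95% interval -0.48 to 0.91). gcl averaged 92.1 ± 21.4 CPM in mutant and 94.5 ± 23.7 CPM in control testes, and bcd 28.1 ± 8.05 and 29.7 ± 11.7 CPM in the same order (SD, n = 3 each). vls averaged 11.6 ± 1.93 CPM in mutant and 11.5 ± 4.42 CPM in control testes, and stau 10.7 ± 5.65 and 12.4 ± 3.35 CPM in the same order. The adjusted p values of these 6 genes lay between 0.827 and 1 (edgeR).

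**Figure D4:**
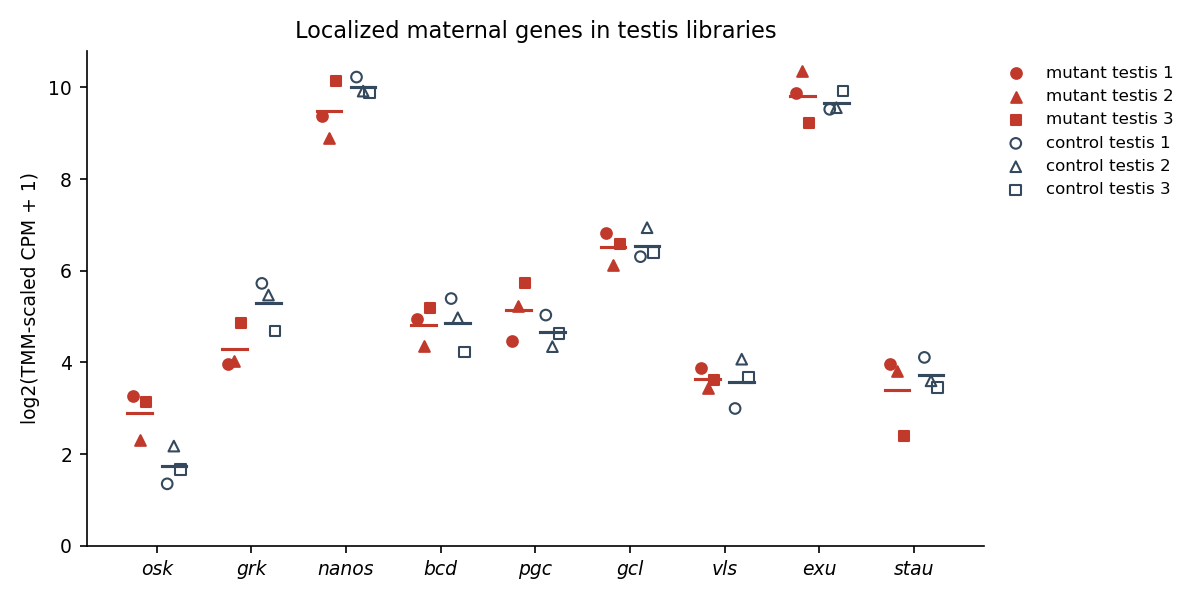
Level of each gene in the 6 testis libraries, as log2 of TMM-scaled CPM plus 1, with mutant libraries filled and left, control libraries open and right, marker shapes for replicates 1, 2 and 3, and a bar for the mean of the log values. nanos and exu are the highest in every library, the osk groups do not overlap, and mutant testis 3 lies with the controls for grk and nanos.

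In these counts, whose strand setting is not stated, the genes split into 2 sets of opposite direction between control ovaries and control testes. Of the 9 genes, 4 were higher in ovaries, where 20.2% of the 10321 genes tested were, and 4 were lower in ovaries, where 42.7% were (edgeR adjusted p under 0.05 in a fit of all 12 libraries). The 4 higher in ovaries were osk, pgc, vls and grk, and the 4 lower in ovaries were nanos, exu, gcl and bcd, while stau did not pass. Genes without an opposite exon held 10.5% to 17.6% of gene counts in control ovary libraries and 30.1% to 37.7% in control testis libraries. Of the 9, bcd and stau are such genes, and gcl has 36 exon bases opposite another gene, fewer than nanos or exu. The part of that share in these differences was not tested. The median log2 fold change of the 9 was -0.29, beside -1.09 over all genes tested. That background shifted to -1.45 with DESeq2 size factors, and each of the 8 passed in the same direction under all 16 other settings. Those that left out a mutant library removed no library of either control group. No setting of this comparison had the share of counts in genes lacking an opposite exon as a covariate, so the settings do not bear on that share.

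In CPM per kilobase, osk had 22.2 ± 10.7 in control ovaries and 0.796 ± 0.322 in control testes (SD, n = 3 each), and the log2 fold change was 4.75 ± 0.84 (adjusted p = 9.36e-05 in edgeR). pgc had 323 ± 56.5 in control ovaries and 19.6 ± 5.23 in control testes, with 4.04 ± 0.55 (edgeR adjusted p = 5.31e-06). vls had 139 ± 13.1 in control ovaries and 8.31 ± 3.1 in control testes, also with 4.04 ± 0.49 (edgeR adjusted p = 1.59e-06). For these genes and for grk, at 157 ± 28.8 in control ovaries and 22.2 ± 7.89 in control testes (2.83 ± 0.5, edgeR adjusted p = 8.9e-05), no testis library reached the lowest ovary library, as for 24.8% of all genes tested.

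The genes lower in ovaries included nanos and exu, the highest of the 9 in testes. For all 4, each ovary library lay below each testis library, as for 49.4% of all genes tested. nanos had 35.4 ± 8.42 CPM per kilobase in control ovaries and 421 ± 62 in control testes (log2 -3.57 ± 0.48, edgeR adjusted p = 5.05e-06). exu had 15.8 ± 5.24 in control ovaries and 237 ± 37.2 in control testes (-3.9 ± 0.46, edgeR adjusted p = 1.17e-06). gcl had 0.857 ± 0.774 in control ovaries, from 6 counts, and 35.8 ± 8.56 in control testes (-5.23 ± 0.91, edgeR adjusted p = 7.65e-05). bcd had 1.4 ± 1.31 in control ovaries, from 10 counts, and 11.2 ± 4.5 in control testes (-2.87 ± 0.75, edgeR adjusted p = 0.00284). stau had 1.79 ± 0.862 in control ovaries and 2.21 ± 0.626 in control testes, with a log2 difference of -0.29 ± 0.84 (95% interval -2.06 to 1.47, edgeR adjusted p = 0.778).

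The order of levels thus differed between the tissues. In control testes nanos and exu were followed by gcl, grk, pgc, bcd, vls, stau and osk, with overlap only among grk, pgc, bcd and vls as neighbours. In mutant testes the order by mean was nanos at 310 ± 134, exu at 278 ± 103, gcl at 35.5 ± 9.12, pgc at 29 ± 11.6, grk at 10.9 ± 4.02, bcd at 10.7 ± 3.06, vls at 8.56 ± 1.68, osk at 2.28 ± 0.867 and stau at 1.93 ± 1.05 per kilobase. The partners on the opposite strand did not all follow. asRNA:CR44020 was higher in ovaries by 10.01 ± 0.83 on the log2 scale and T3dh by 5.79 ± 0.62, both in the direction of osk and pgc (edgeR adjusted p = 4.59e-08 and 5e-07). CG11779 was higher in ovaries by 1.92 ± 0.4 while nanos was lower (edgeR adjusted p = 0.000386), and galla-1 was lower like exu (log2 -4.52 ± 0.58, edgeR adjusted p = 2.95e-06).

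**Figure D5:**
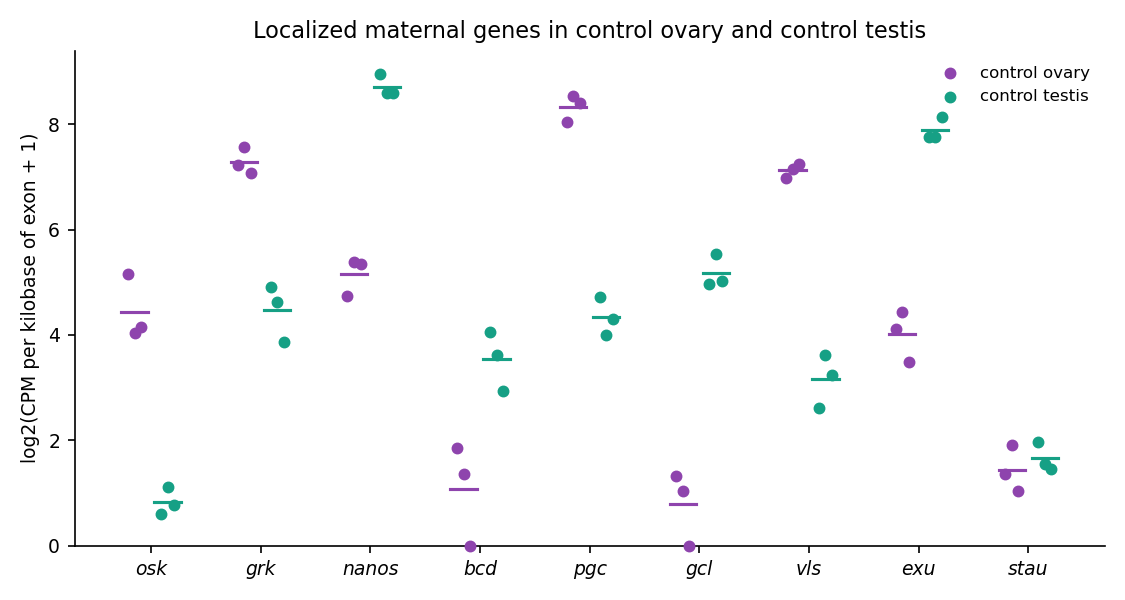
Level of each gene in the 3 control ovary libraries (left) and the 3 control testis libraries (right), as log2 of CPM per kilobase of exon plus 1, with a bar for the mean of the log values. osk, grk, pgc and vls lie higher in ovaries, nanos, bcd, gcl and exu lie higher in testes, and the stau groups overlap.

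Whether the genotype difference itself differed between ovaries and testes was tested in the same fit of 12 libraries. None of the 9 genes passed, where 0.0291% of 10321 genes did. The difference, ovary minus testis, ran from -0.95 ± 0.69 for pgc to 2.28 ± 1.15 for gcl on the log2 scale, and the value for gcl had the smallest adjusted p of the 9 (unadjusted p = 0.0635, edgeR adjusted p = 0.973). Without mutant ovary 2 it was -0.18 for gcl. Over all genes 550 had an unadjusted p under 0.05 and DESeq2 called 13.

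Other genes of these pathways were read from 8 lists that hold 63 symbols, of which 60 were matched. They cover the transport of osk RNA, the anchoring of bcd RNA, Gurken signalling, translational regulators, partners of nanos, the terminal and dorsal systems, and further germ plasm RNAs. In ovaries 29 were tested and 0 passed. The sign of the difference was higher in mutants for 26 and lower for 3, with a median of 0.59 beside 0.14 over all genes, of which 61.4% were higher in sign. Of the 29, 23 were highest in mutant ovary 2. Without that library 8 of 29 were higher in sign and 21 lower, with a median of -0.47 beside -0.09 over all genes, of which 44.9% were higher in sign. In testes 47 were tested and 0 passed, 20 higher in sign and 27 lower.

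Between control ovaries and control testes, 13 of 52 pathway genes were higher in ovaries, where 20.2% of all genes were, and 13 lower, where 42.7% were. Levels here are in CPM on the scale of all 12 libraries. In the osk transport list, tsu, a subunit of the exon junction complex, was higher in ovaries at 75.8 ± 2.77 CPM, against 10.6 ± 5.43 CPM in testes (log2 2.79 ± 0.51, edgeR adjusted p = 0.000118). The actin nucleators of that list were lower in ovaries. capu had 11 ± 6.31 CPM in ovaries and 200 ± 37.3 CPM in testes (log2 -4.14 ± 0.57, edgeR adjusted p = 6.55e-06), and spir had 18.6 ± 2.21 and 172 ± 19.8 CPM in the same order. Of the Gurken list, sqd, which encodes an RNA-binding protein that localizes grk RNA, had 292 ± 117 CPM in ovaries and 34.6 ± 11.5 CPM in testes (log2 3.06 ± 0.65, edgeR adjusted p = 0.000516). Among the translational regulators, wisp, a cytoplasmic poly(A) polymerase gene, had 31.2 ± 4.27 CPM in ovaries and 1.64 ± 2.85 CPM in testes (log2 3.96 ± 0.99, edgeR adjusted p = 0.00191), and orb, which promotes poly(A) tail growth, was lower in ovaries (-2.06 ± 0.61, edgeR adjusted p = 0.00647). The terminal system was led by clos, at 3512 ± 759 CPM in ovaries and 346 ± 56.5 CPM in testes, and trk, which encodes the ligand of Torso, was higher in ovaries by 3.76 ± 0.53 on the log2 scale (edgeR adjusted p = 9.5e-06). fs(1)N of the same list was lower in ovaries (log2 -1.97 ± 0.71, edgeR adjusted p = 0.0226). In the dorsal system tub, spz and pll were lower in ovaries, with log2 fold changes of -5.18 ± 0.79, -4.46 ± 0.69 and -5.14 ± 0.82 (edgeR adjusted p = 2.07e-05 to 3.02e-05). In the bcd anchoring list the ESCRT-II gene Vps36 and Vps28 were lower in ovaries by log2 -4.28 ± 1.3 and -4.15 ± 0.68 (edgeR adjusted p = 0.00765 and 4.45e-05). cup and BicC, translational regulators of osk, had 0 counts in all 12 libraries. Their exon bases are shared, to 100% and 94.8%, with CG34310 and CG45084 on the same strand.

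As a description over the 12 libraries, which share tissue and library composition, the genes most like osk in log2 CPM among 10321 tested were Tudor-SN (Pearson r = 0.975), RpL34b (0.971) and yl (0.97), the last of which encodes the yolk protein receptor of the oocyte. Those most like grk were Hayan, PIP4K and CG43232 (each 0.988), and those most like nanos were CG14367 (0.995), sPLA2 and Arp5 (each 0.993).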

How the data were processed

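Libraries came from dissected ovaries and testes in 4 groups of 3, each from 200 ng of RNA and a TruSeq RNA kit (version v2), per the labels. The authors deposited raw HTSeq gene counts, 1 file per library, and these counts were used unchanged. FastQC, TopHat2 2.1.1 with the BDGP6 build, HTSeq 0.9.1 and DESeq are named in the submitters' processing notes. How strand was set in the counting is not given there. HTSeq summary lines entered neither library sizes nor tests. No pair of replicates was within counting noise (chi-square per gene between 5.14 and 58.4), so each library is 1 sample.

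The 9 genes, the pathway and marker lists, the naming rule and the tests were chosen with earlier results of these data known. Further genes are named as the feature with the most exon bases opposite each gene, as Tdrd5l, as up to 3 pathway genes per list that passed with the smallest adjusted p (some are counted but not described), and as the 3 genes of highest Pearson r with osk, grk and nanos. Positions and exons are those of Ensembl release 115 (BDGP6.54), where 17252 of the 17558 features were found.

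Mutants and controls of a tissue were compared in edgeR 4.0.16 by the robust quasi-likelihood F test, two-sided, after filterByExpr (minimum count 10) and TMM scaling, and a gene passed at a Benjamini-Hochberg adjusted p under 0.05 over all genes tested. A fit of all 12 libraries gave ovary against testis and the difference of the genotype effects. Intervals are 95%, from the SE and the t quantile at the degrees of freedom of the fit. Genes below the filter got exact two-sided permutation tests of TMM-scaled CPM (counts per 1000000). Similarity used log2 CPM with a prior count of 2. Levels are mean ± SD. Alternatives were DESeq2 size factors, library size alone, no filter, DESeq2 1.42.0, a covariate for strand share (log2 of counts in genes lacking an opposite exon over counts in genes having one), a replicate block, sums with the opposite gene, CPM by library total, and each library left out in turn. Leaving out mutant ovary 2 and control ovary 1 together, and pair shares and sums without mutant ovary 2, were added after the data were seen. The fits were checked on simulated counts with a single dispersion for all genes and no library set apart. That check does not show how the fits behave with a library like mutant ovary 2. Same-numbered libraries did not deviate together, with correlations of -0.56, -0.45 and 0.3 in ovary and -0.19, 0.01 and -0.34 in testis, so the replicate numbers were not taken as pairs.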

Additional observations from a re-analysis of the deposited data

How the results depend on the processing

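Over the fitted log2 fold changes of the 9 genes and asRNA:CR44020, 476 alternative values kept their direction and their side of the threshold, 24 changed sign and 5 passed the threshold where the values given first did not; the 5 are asRNA:CR44020 in ovaries, 3 times, and grk and nanos in testes without mutant testis 3. vls in testes was at 0, with 12 alternatives between -0.23 and 0.27 that did not pass. Counts of genes called in ovaries were 0, but 7 with no filter, 14 with DESeq2, 92 with the strand share as a term, 124 without mutant ovary 2 and control ovary 1, and 0 to 55 with each library left out, 55 without mutant ovary 2. In testes they were 92, but 58 with library size alone, 177 with the strand share and 49 to 725 with each library left out, 725 without mutant testis 3, 49 without mutant testis 2 and 52 without control testis 1. For the difference between tissues they were 3, but 5 with DESeq2 size factors, 6 with no filter, 13 with DESeq2, and 1 to 6 with each library left out. For control ovary against control testis they were 6502, with 5868 to 7420 across all alternatives, none of which had the strand share as a term.

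Sign changes concerned values within their SE or resting on 1 library, and the cause was not tested beyond the setting itself. With the strand share, bcd and exu in testes were at 0.12 and -0.02. Without mutant ovary 2 and control ovary 1, exu in ovaries was at -0.05. With each library left out, the log2 fold change in ovaries ran from -0.17 to 2.48 for osk, from -0.01 to 0.48 for nanos and from -0.15 to 0.31 for exu. In testes it ran from -0.35 to 0.22 for bcd, from -0.2 to 0.17 for gcl, from -0.08 to 0.44 for exu and from -0.42 to 0.17 for stau. The difference between tissues ran from -1.58 to 0.63 for osk, from -0.56 to 0.02 for exu, from -0.18 to 3.01 for gcl and from -1.33 to 1.62 for stau, and the lowest values of osk, gcl and stau came without mutant ovary 2. Summing a gene with its opposite partner moved the log2 ratio of means to -0.15 for grk and 0.7 for exu in ovaries, and to 0.86 for osk and -0.1 for grk in testes, and it changed the sign for pgc in ovaries (0.08) and for exu and vls in testes (-0.16 and -0.09).

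The replicate numbers do not pair the libraries. With a replicate block, 0 genes passed in ovaries, 79 in testes and 6 for the difference between tissues, where osk was at -0.59. Mutant ovary 2 deviated most like control ovary 1 (r = 0.7). The limits are the 3 libraries per group, low ovary counts for bcd, gcl and stau, and RNA selection that went with tissue. Strand is another: reads of opposite genes cannot be told apart without it, and the doubt reaches each gene's level over all its exons.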
